A study of Mus musculus with 89 samples.

Results

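Collagens and the proteins that fibroblasts lay down with them were followed through mouse brain RNA by a list of 40 gene symbols. The list takes fibrillar and other interstitial collagens, basement membrane chains, small proteoglycans, matrix glycoproteins, the enzymes and chaperones of collagen maturation, matrix remodelling genes, and a pair of transporters of meningeal fibroblasts. A symbol was used wherever the deposited tables had it, which gave 39 of the 40 genes among the 14964 genes of the Klotho table, 39 among 13662 genes of the choroid plexus table and 38 among 14440 genes of the hippocampus table. Timp1, an inhibitor of matrix metalloproteinases, was in none of the tables used here, and Loxl2 was not in the hippocampus table.

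The study sequenced RNA of 89 libraries. In 17 of them the mice differed in Klotho: 4 Klko mice, knockouts of α-Klotho, and 4 wild type WT-y mice, both 2 months old, and 5 Klhet mice, heterozygous for Klotho, and 4 wild type WT-o mice, both 9 months old. The labels name the tissue of these mice brain and an extraction from cortex, while the paper's methods name the hippocampus. Genotype and age change together between the pair of genotype comparisons, so that knockout at the younger age and heterozygosity at the older age cannot be told apart from age. The other 72 libraries, 34 of choroid plexus and 38 of hippocampus, came from aged wild type mice (C57BL/6). The paper's methods and discussion name males, while its figure captions give an equal sex distribution. These mice were injected through the tail vein every 3 days over 25 days, tested for memory and perfused before dissection. They had 100 µL of young serum (YS), the same volume of young serum from which a precipitation reagent had removed extracellular vesicles (YDS), or a sham injection (Sham). The sample labels give no arm for these mice. The arm stands only in the column names of the deposited tables, and is used here to set values side by side, without a test.

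A fibril-forming collagen is a rope of chains that wind around each other in the endoplasmic reticulum, where prolyl 4-hydroxylases modify the chains and the chaperone Serpinh1 holds the helix. Outside the cell the ends are cut off and lysyl oxidases link the molecules. In the brain, interstitial collagens belong to fibroblasts of the meninges, of the spaces around larger vessels and of the choroid plexus stroma, whereas type IV collagen and laminins form the basement membrane of every vessel, made by endothelium, mural cells and astrocytes.

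The unit throughout is CPM, a gene's read count relative to all counted reads of that library, as deposited by the authors. The Klotho libraries held 26338890 to 40229041 counted reads, the choroid plexus libraries 27165663 to 46836730 and the hippocampal libraries of the infusion experiment 23231524 to 40801000. A module mean, the mean over the listed genes of log2(CPM + 0.5), summarises a library. Kl, the gene of α-Klotho, was at 2.90 to 23.3 CPM in the Klko libraries, below the 62.3 to 237 CPM of WT-y, and at 15.6 to 128 CPM in Klhet and 127 to 256 CPM in WT-o. Ttr, the main transcript of choroid plexus epithelium, ranged from 220 to 7717 CPM over the Klotho libraries, in the choroid plexus table from 102233 to 235998 CPM and in the hippocampus table from 0.845 to 1232 CPM. Some libraries stood apart for the matrix genes. WT-o replicate 1 was the highest of its group in 30 of 39 genes (22.1% of all genes) and Klhet replicate 3 in 29 of 39 (23.7%), while Klhet replicate 2 was the lowest of its group in 26 of 39 (29.7%) and WT-y replicate 2 in 25 of 39 (40.3%). Choroid plexus replicate 24, described with the infusion libraries, stood far above all others of its tissue.

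Few of the matrix genes changed between Klko and WT-y mice at 2 months. Between Klko and WT-y, 3 of 39 genes passed an adjusted p of 0.05 (7.69%, against 11.3% of all genes tested by limma), 1 of them higher, Sparc (4.83% of all genes were higher), and 2 lower, P4ha1 and Lama2 (6.44% of all genes). Unadjusted p-values were under 0.05 for 5 genes (12.8%, against 28.9% of all genes), and the groups did not overlap in 6 genes (15.4%, against 12.2%). Log2 fold changes ran from -0.96 to 0.85 with a median of -0.07, beside -0.02 over all genes, and 18 were positive and 21 negative. The module mean was 3.84 ± 0.16 (SD, n = 4) in Klko and 3.82 ± 0.25 (SD, n = 4) in WT-y. The labels name each library as a separate sample of its genotype and age, and p-values measure only the spread between these samples. In bulk tissue, fewer cells of a type and less RNA per cell cannot be told apart.

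Sparc, on chromosome 11 from 55394500 to 55423183 on the minus strand (GRCm38), encodes a collagen-binding matricellular protein that in brain is also made by vessels and glia. The WT-y libraries held 237, 137, 266 and 266 CPM of Sparc and the Klko libraries 471, 363, 309.5 and 459.5 CPM. At 9 months the WT-o libraries were at 242, 244, 207 and 253 CPM and the Klhet libraries at 264, 245, 273, 252 and 257 CPM. Every Klko library was thus above every library of the other 3 groups, which overlapped each other. Sparc rose by 0.85 on the log2 scale (standard error 0.17, adjusted p = 0.00909 by limma). WT-y replicate 2 was the lowest of all 17 libraries, and without it the log2 fold change was 0.62 with an adjusted p of 0.00151. Over all alternatives tried the adjusted p of Sparc ran from 3.6e-05 to 0.221. Among glia, which also make Sparc, the summed astrocyte markers were at 5465 to 5901 CPM in Klko and 4971 to 5860.5 CPM in WT-y, and the microglial markers at 397 to 452 and 337 to 450 CPM.

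The genes of collagen maturation pointed the other way. All 6 had negative log2 fold changes in Klko, from -0.96 to -0.12 with a median of -0.61, and 1 of them, P4ha1, passed the test. P4ha1, on chromosome 10 from 59323296 to 59373304 on the plus strand, encodes a catalytic subunit of collagen prolyl 4-hydroxylase. It was at 74.5, 82.4, 55.2 and 52.8 CPM in WT-y and at 26.0, 31.9, 38.2 and 37.8 CPM in Klko. The WT-o libraries held 92.0, 63.5, 48.3 and 57.3 CPM and the Klhet libraries 52.1, 63.3, 55.5, 68.5 and 53.3 CPM. All 4 Klko libraries lay below the other 13 Klotho libraries. P4ha1 fell by 0.96 on the log2 scale (standard error 0.18, adjusted p = 0.00692 by limma), with adjusted p-values from 6.66e-05 to 0.206 over the alternatives. When each of the 8 libraries was left out in turn, P4ha1 and Sparc passed every time. Both were lost in a limma fit of the 8 libraries alone, where 20 genes in all passed, and in edgeR on 7 of these libraries, where none did.

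A pair of further maturation genes missed the threshold although their groups did not overlap; they are named here after their values were seen. P4ha2, on chromosome 11, encodes the other widely used catalytic subunit of the same enzyme. Its level was 10.9, 10.0, 7.85 and 8.13 CPM in WT-y and 5.12, 7.74, 3.79 and 7.51 CPM in Klko, a log2 fold change of -0.61 (adjusted p = 0.0520 by limma, 0.0323 to 0.380 over the alternatives). The gap between the groups was narrow, with the highest Klko library just under the lowest WT-y library. Serpinh1, on chromosome 7, encodes the collagen chaperone HSP47 and was at 31.9, 33.8, 29.7 and 38.5 CPM in WT-y and 17.3, 20.0, 23.6 and 26.4 CPM in Klko, a log2 fold change of -0.62 (adjusted p = 0.0671 by limma, 0.0497 to 0.214 over the alternatives). DESeq2 on the recovered reads called both, with 16.7% of all genes called. Loxl2, a lysyl oxidase homologue that links collagen, was low, at 1.09 to 2.59 CPM in WT-y and 0.584 to 1.42 CPM in Klko, and these ranges overlapped. Ttr, a measure of choroid plexus in the sample, was at 7473, 2503, 2265 and 5413 CPM in WT-y and 245, 5403, 2838 and 2973 CPM in Klko, and the library at 245 CPM, Klko replicate 1, was the lowest of the 8 for P4ha1 and Serpinh1. The part of this tissue in the differences was not tested.

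The bases before the start sites of P4ha1 and Lama2, which fell, and of P4ha2 and Serpinh1, the genes with the next smallest p-values, are shown so that they can be compared. Each line gives the 100 bases upstream of the RefSeq start (GRCm38.p6), 5′ to 3′ on the strand of the gene. Capitals mark GGGCGG, a GC box, and ACGTG, the core of many E-box and hypoxia elements, on either strand, so that the latter can read CACGT. They lie at chr10:59323196-59323295 (plus) for P4ha1, chr11:54100824-54100923 (plus) for P4ha2, chr7:99353240-99353339 (minus) for Serpinh1 and chr10:27616943-27617042 (minus) for Lama2, and none overlaps an exon in GENCODE, although those of P4ha2 and Lama2 lie inside the annotated gene.
P4ha1: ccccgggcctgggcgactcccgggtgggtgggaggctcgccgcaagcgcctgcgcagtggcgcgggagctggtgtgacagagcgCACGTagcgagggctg
P4ha2: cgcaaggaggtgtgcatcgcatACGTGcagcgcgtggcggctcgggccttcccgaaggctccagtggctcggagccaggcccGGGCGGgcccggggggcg
Serpinh1: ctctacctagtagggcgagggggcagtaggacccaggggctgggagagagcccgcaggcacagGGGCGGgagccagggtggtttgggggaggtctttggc
Lama2: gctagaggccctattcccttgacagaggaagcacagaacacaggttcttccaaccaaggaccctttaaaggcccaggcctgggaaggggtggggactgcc
P4ha1 has ACGTG on its reverse strand close to the start, P4ha2 has both motifs, Serpinh1 has the GC box, and Lama2 has neither. Of the 40 listed genes, 28 matched the RefSeq promoter table, with 33 start sites. GGGCGG was found in 14 of these 33 windows (42.4%, against 24.7% of 32851 windows of all genes), ACGTG in 6 (18.2%, against 8.09%), CCAAT in 4 (12.1%, against 18.9%) and TATAAA in 1 (3.03%, against 5.56%), counting both strands and the same 100 bases, and none of these motifs holds another. The motif ACGTG was added after the sequences had been seen. A match describes letters only.

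The basement membrane genes also all had negative log2 fold changes in Klko, from -0.34 to -0.07, and 1 of 5 passed. Lama2, on chromosome 10 from 26980036 to 27619758 on the minus strand, encodes the α2 chain of laminin. It was at 14.6, 13.6, 14.2 and 13.4 CPM in WT-y and 12.6, 9.73, 10.2 and 11.3 CPM in Klko. Each Klko library was below each WT-y library, by a narrow margin. Lama2 fell by 0.34 on the log2 scale (standard error 0.10, adjusted p = 0.0347 by limma, 0.0213 to 0.395 over the alternatives). This call was lost in 9 of 19 alternatives, among them leaving out Klko replicate 2, 3 or 4 or WT-y replicate 1, 3 or 4. With the trend of each library over exon length removed before the limma fit, Lama2 was at -0.15 (adjusted p = 0.395).

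Col4a1 and Col4a2 encode the chains of type IV collagen, the network of vascular basement membranes, and start head to head on chromosome 8, where their annotated first bases overlap. Col4a1 (11198423 to 11312826) was at 42.1, 30.4, 52.4 and 63.5 CPM in WT-y and 44.0, 38.5, 37.9 and 41.5 CPM in Klko. Col4a2 (11312805 to 11449287) was at 44.7, 34.8, 61.7 and 72.3 CPM in WT-y and 48.7, 50.4, 44.3 and 52.9 CPM in Klko. For both, the Klko libraries lay within the wide range of WT-y, and the log2 fold changes of -0.17 and -0.07 had adjusted p-values of 0.494 and 0.809 by limma. Without WT-y replicate 2, the lowest of its group for both, Col4a1 passed at -0.36 with an adjusted p of 0.0292 (0.0292 to 0.972 over its alternatives). Lamb1, the laminin β1 chain, and Nid1, a linker of laminin and type IV collagen, had log2 fold changes of -0.34 and -0.08, and neither passed.

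The fibrillar collagens, the main products of fibroblasts, were all a little higher on average in Klko, with log2 fold changes of 0.15 to 0.43, and none of the 5 passed. Col1a1, on chromosome 11, was at 19.1, 10.9, 35.1 and 38.5 CPM in WT-y and 48.2, 14.8, 29.0 and 33.0 CPM in Klko. Its partner chain Col1a2, on chromosome 6, was at 23.5, 17.9, 33.0 and 36.6 CPM in WT-y and 49.5, 20.6, 25.4 and 33.9 CPM in Klko. Col3a1, on chromosome 1, the collagen of type III fibrils, was at 7.31, 4.10, 12.7 and 13.1 CPM in WT-y and 17.4, 6.46, 8.05 and 8.68 CPM in Klko. In each of these the groups overlapped over most of their range, with Klko replicate 1 the highest library of both groups. The log2 fold changes of 0.31, 0.19 and 0.15 had adjusted p-values of 0.709, 0.753 and 0.867 by limma. The sign turned without Klko replicate 1 for Col1a2 (-0.03) and Col3a1 (-0.13), and without WT-y replicate 2 for Col1a1 (-0.04) and Col3a1 (-0.17).

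Other interstitial collagens split, with Col6a1 and Col6a2 positive at 0.68 and 0.24 and Col6a3 and Col12a1 negative at -0.10 and -0.18, and none passed. Col6a1 and Col6a2 encode chains of type VI collagen, a beaded filament around cells, and lie on the same chromosome. Col6a1 was at 9.75, 19.0, 15.4 and 14.6 CPM in WT-y and at 34.4, 9.98, 24.6 and 34.2 CPM in Klko, where replicate 2 alone lay within the WT-y range. Without that library Col6a1 passed with a log2 fold change of 1.08 and an adjusted p of 0.0471 by limma (0.0471 to 0.485 over its alternatives).

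Among the small proteoglycans, which coat collagen fibrils, 2 log2 fold changes were positive and 3 negative, from -0.26 to 0.58, and none passed. Dcn, decorin, on chromosome 10, was at 33.2, 7.29, 42.1 and 35.6 CPM in WT-y and at 16.3, 22.0, 27.3 and 17.9 CPM in Klko. The low WT-y replicate 2 put the Klko libraries inside the range of WT-y, and the log2 fold change of -0.26 had an adjusted p of 0.737 by limma. Without that library it was -0.83, which did not pass either.

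Of the 10 glycoproteins and matricellular proteins, 6 were positive and 4 negative and Sparc alone passed. Fn1, fibronectin, on chromosome 1, was at 38.7, 37.1, 52.7 and 56.6 CPM in WT-y and at 62.9, 51.3, 39.1 and 50.4 CPM in Klko, a log2 fold change of 0.14 with an adjusted p of 0.732 by limma. Mgp, matrix Gla protein, an inhibitor of calcification named after its values were seen, was at 7.52, 7.99, 8.77 and 7.81 CPM in WT-y and 19.3, 12.5, 10.7 and 12.8 CPM in Klko. The groups of Mgp did not overlap, but its log2 fold change of 0.72 had an adjusted p of 0.279 by limma, with a spread taken over all 4 groups, among which WT-o and Klhet ranged from 3.51 to 21.6 CPM.

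Slc6a13 and Slc47a1 encode a GABA transporter and an organic cation exporter that mark meningeal fibroblasts in mouse brain. Slc6a13, on chromosome 6, was at 8.77, 9.89, 11.5 and 10.7 CPM in WT-y and 20.2, 9.81, 14.2 and 16.9 CPM in Klko. Slc47a1, on chromosome 11, was at 1.70, 1.74, 3.46 and 2.98 CPM in WT-y and 6.77, 1.22, 4.91 and 5.15 CPM in Klko. In both, 3 Klko libraries lay above all of WT-y and replicate 2 within or under it, and the log2 fold changes of 0.52 and 0.62 had adjusted p-values of 0.539 and 0.490 by limma. The summed level of 15 measured meningeal fibroblast markers from a list of 16 that holds none of these genes was 1332 to 2155 CPM in Klko, lowest in the same replicate 2, and 1119 to 1362 CPM in WT-y. Ptgds, prostaglandin D synthase, was large beside this sum, at 684 to 1377 CPM in Klko and 468 to 687 CPM in WT-y. The sum and Ptgds are not read as separate measures. Foxc1, a transcription factor expressed in meningeal fibroblasts though not only there, was at 15.0 to 34.2 CPM in Klko and 10.4 to 17.9 CPM in WT-y. No group had it at 0. General fibroblast markers (8 summed from a list of 11) were at 124 to 152 CPM in Klko and 119 to 138 CPM in WT-y. The summed endothelial markers were at 282 to 330 CPM in Klko and 230 to 355 CPM in WT-y, and the mural markers at 196 to 241 and 181 to 215 CPM. The part of these cells in the differences was not tested.

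**Figure D1:**
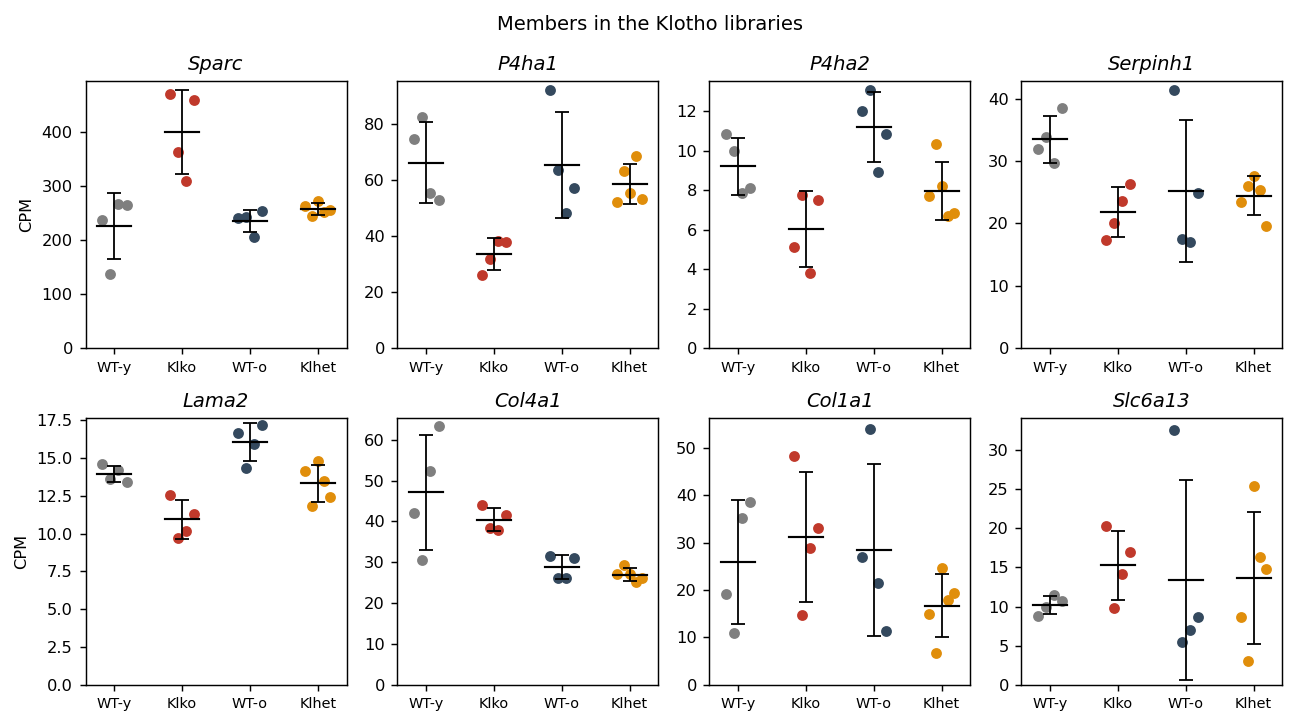
CPM (y axis, linear from 0) of 8 matrix genes in each of the 17 Klotho libraries, with points for libraries, bars for group means and whiskers for SD (n = 4, and 5 for Klhet). Sparc was above all other libraries in the 4 Klko mice, and P4ha1 was below them.

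In heterozygotes at 9 months no matrix gene passed. Between Klhet and WT-o 0 of 39 genes were called by limma, with 0% of all genes called, and edgeR and DESeq2 on recovered reads called 0 of the 39 as well, with 0% and 0.0401% of all genes. In 0 of the 39 were the groups free of overlap, against 6.72% of all genes. Unadjusted p-values were under 0.05 for 2 genes (5.13%, against 11.3% of all genes). These were Lama2, at 16.7, 14.3, 15.9 and 17.2 CPM in WT-o and 14.1, 11.8, 14.8, 13.5 and 12.4 CPM in Klhet (log2 fold change -0.26, adjusted p = 0.406 by limma), and P4ha2, at 8.93 to 13.1 CPM in WT-o and 6.68 to 10.3 CPM in Klhet (-0.47, adjusted p = 0.411 by limma). For both genes the groups overlapped.

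Most estimates were negative in Klhet, 31 of 39, with 20.5% positive and a median log2 fold change of -0.16 beside -0.06 over all genes, of which 36.7% were positive. WT-o replicate 1 was the highest of its group in 30 of 39 genes. Without that library the module mean was higher in Klhet than in WT-o by 0.03, instead of lower. All 5 fibrillar collagens were negative, from -0.65 to -0.27. Col1a1 was at 26.9, 54.0, 21.5 and 11.4 CPM in WT-o and 14.8, 6.78, 24.6, 18.0 and 19.3 CPM in Klhet, and Col1a2 at 36.6, 29.9, 17.5 and 13.7 CPM and 15.5, 9.41, 29.7, 20.8 and 18.5 CPM. Both groups were wide and overlapped. Dcn went the other way on average, with 23.3, 7.96, 17.6 and 19.8 CPM in WT-o and 20.8, 13.9, 41.3, 33.4 and 22.0 CPM in Klhet, a log2 fold change of 0.60 with an adjusted p of 0.558 by limma.

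The spread inside these groups followed single mice. The module mean was 3.74 ± 0.37 (SD, n = 4) in WT-o and 3.59 ± 0.38 (SD, n = 5) in Klhet, with the highest value of 4.27 in WT-o replicate 1 and the lowest of 3.06 in Klhet replicate 2. Slc6a13 was at 32.5, 5.47, 6.95 and 8.70 CPM in WT-o and 8.61, 3.00, 25.4, 16.3 and 14.8 CPM in Klhet. Slc47a1 was at 7.76, 1.73, 3.36 and 3.48 CPM in WT-o and 3.51, 0.337, 6.27, 5.16 and 2.36 CPM in Klhet. Col3a1 had 10.3, 3.02, 2.15 and 3.90 CPM in WT-o and 2.52, 1.28, 7.58, 4.14 and 3.54 CPM in Klhet, and Fn1 79.7, 28.8, 36.1 and 40.4 CPM and 40.5, 39.2, 56.5, 45.7 and 46.5 CPM. In each of these 4 genes WT-o replicate 1 and Klhet replicate 3 were the highest of their group. The summed meningeal markers were likewise highest in these mice, at 2476 CPM in WT-o replicate 1 (the other WT-o libraries 771 to 1179) and 2157 CPM in Klhet replicate 3, and lowest of Klhet in replicate 2, at 820 CPM. Ptgds alone reached 1748 CPM in WT-o and 1300 CPM in Klhet. The part of the meningeal markers in the spread was not tested.

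A test of the difference between the genotype effects at 2 and 9 months called 0 of 39 genes by limma, with 0% of all genes called, and 0 of 39 by edgeR and by DESeq2 (0% and 0.321% of all genes). Unadjusted p-values were under 0.05 for 4 genes (10.3%, against 8.87% of all genes). P4ha1 differed by -0.84 on the log2 scale (unadjusted p = 0.00367, adjusted p = 0.399 by limma) and Sparc by 0.72 (unadjusted p = 0.00721, adjusted p = 0.431 by limma), so neither change of Klko was shown to differ from that of Klhet. The other 2, named after their values were seen, were Col6a1 (1.29, adjusted p = 0.491) and Serpinh1 (-0.66, adjusted p = 0.530).

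**Figure D2:**
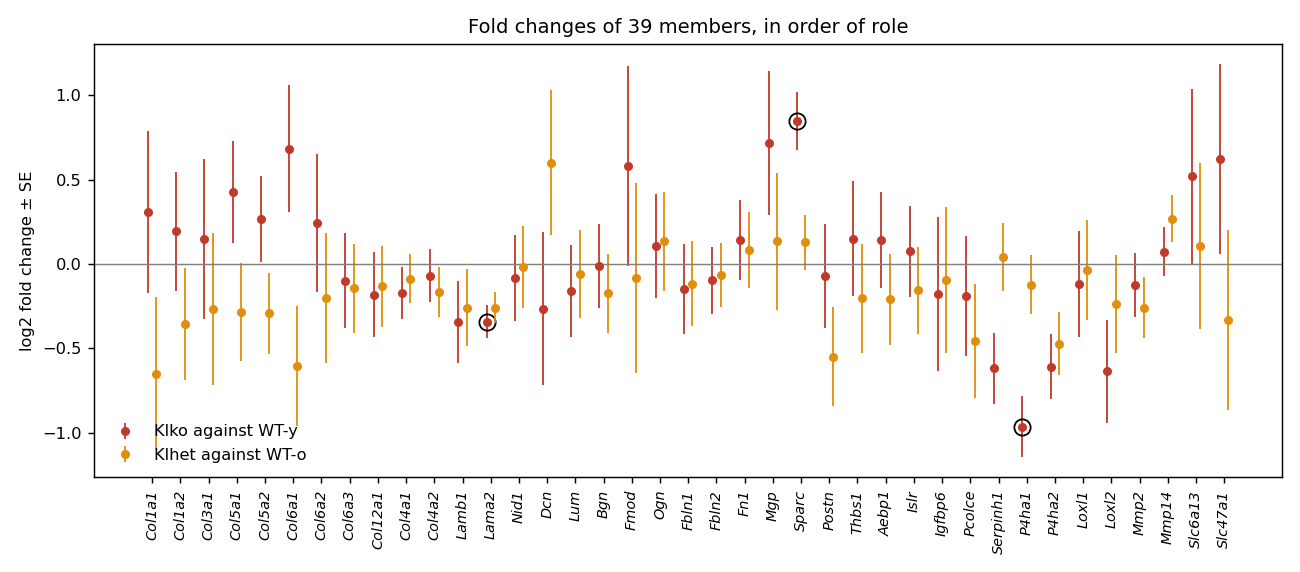
Log2 fold change with its standard error (y axis) of the 39 genes, in order of role from fibrillar collagens at the left to transporters at the right, for Klko against WT-y in red and Klhet against WT-o in orange. Circles mark the 3 genes that passed the test, Lama2, Sparc and P4ha1, all for Klko. The fibrillar collagens lie above 0 for Klko and below 0 for Klhet, with error bars that are wide beside the differences.

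Between wild type mice of 2 and 9 months the smallest p-values among the matrix genes were those of the type IV collagen chains, which had the lower mean at 9 months. Col4a1 was at 31.4, 26.2, 26.2 and 31.1 CPM in WT-o, and Klhet mice of the same age held 27.0, 29.4, 27.1, 25.2 and 26.1 CPM, whereas the WT-y values began at 30.4 CPM and reached 63.5. Col4a2 was at 35.4, 37.2, 34.7 and 41.2 CPM in WT-o and 32.9, 32.5, 29.8, 34.6 and 35.4 CPM in Klhet. The 9 libraries of 9 months thus fell in a narrow band at the lower end of WT-y, of which WT-y replicate 2 alone reached into it for Col4a1. The log2 fold change between WT-o and WT-y was -0.66 for Col4a1 (standard error 0.15, unadjusted p = 0.000497, adjusted p = 0.181 by limma) and -0.47 for Col4a2 (unadjusted p = 0.00844, adjusted p = 0.378).

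Neither passed, and 0 of 39 genes were called by limma in this comparison, where 7 genes passed in all (0.0468%, 0.0267% higher and 0.02% lower). In 0 of the 39 were the groups free of overlap, against 2.97% of all genes. Unadjusted p-values were under 0.05 for 4 genes (10.3%, against 8.01% of all genes), all negative, the type IV chains together with Nid1 (-0.65, adjusted p = 0.493) and Serpinh1 (-0.49, adjusted p = 0.568). Without WT-y replicate 2, Col4a1 passed at -0.85 (adjusted p = 0.00103 by limma) and Col4a2 at -0.65 (adjusted p = 0.00739), with 583 genes called. DESeq2 called Col4a1 with all libraries in (adjusted p = 0.00352), among 0.782% of all genes, and edgeR called none of the 39. Adjusted p-values over the alternatives ran from 0.00103 to 0.759 for Col4a1 and from 0.00739 to 0.999 for Col4a2. The other 35 genes had fold changes on both sides of 0, with 20 of 39 positive and a median of 0.02, as over all genes (0.02).

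Of a further list of 93 matrix genes outside the 40, 87 were tested. Between Klko and WT-y 4 passed (4.60%, against 11.3% of all genes), 2 higher and 2 lower. The 3 with the smallest p were Mmp17, a membrane-bound metalloproteinase, at 252 ± 29.0 CPM (SD, n = 4) in Klko and 353 ± 28.3 CPM (SD, n = 4) in WT-y (log2 fold change -0.49, adjusted p = 0.00726 by limma), Timp4, a metalloproteinase inhibitor, at 50.4 ± 3.68 and 38.5 ± 2.66 CPM (0.39, adjusted p = 0.0270), and Lamb3, a laminin β3 chain, at 3.35 ± 0.854 and 1.84 ± 0.189 CPM (0.70, adjusted p = 0.0333). The list's median log2 fold change was -0.01. In Klhet against WT-o and in WT-o against WT-y limma called 0 of the 87, with unadjusted p-values under 0.05 for 6 and 11, where 11.3% and 8.01% of all genes were under 0.05.

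In choroid plexus of the infused mice, a tissue of secretory epithelium over a stroma with fibroblasts, 1 library held far more matrix RNA than any other. The module mean was 6.62 in replicate 24, whereas the other 33 libraries ranged from 3.60 to 5.31 around a median of 4.24. The column of replicate 24 names YS with an added suffix (YS_2) that no other column of either tissue has and that no label explains. The next highest was replicate 28, whose column names Sham. By arm, the module mean was lowest at 3.60, 4.21 in the median and highest at 5.31 over 8 Sham libraries, 4.01, 4.32 and 6.62 over 12 YS libraries, and 3.86, 4.19 and 4.91 over 14 YDS libraries. The arms overlapped in the module mean, and no pair of arms was free of overlap in any of the 39 genes, nor in any gene of the table (0% of 13662).

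Replicate 24 was the highest of the 34 libraries in 28 of 39 genes (71.8%, against 18.1% of all genes). Over the 39 genes its median log2 difference from the median of the other 33 libraries was 2.44, beside 0.09 over all genes, and 22 genes were more than 4 times higher. Fn1 was at 671 CPM in this library, and the others ranged from 1.62 to 117 CPM with a median of 5.75. Slc6a13 was at 226 CPM against 1.46 to 43.4, with a median of 2.68, and Slc47a1 at 114 CPM against 0.354 to 8.04, with a median of 1.50. The meningeal transporters and fibronectin thus stood furthest out.

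The collagens followed. Col1a1 was at 92.2 CPM in replicate 24 (others 1.09 to 27.0, median 6.14), Col1a2 at 283 CPM (others 19.2 to 96.0, median 46.3) and Col3a1 at 65.1 CPM (others 0.342 to 14.7, median 2.19). Col4a1 was at 58.2 CPM (others 3.45 to 25.6, median 7.28), Col4a2 at 33.8 CPM (others 3.39 to 19.9, median 6.48) and Dcn at 348 CPM (others 3.64 to 140, median 24.7). All lay outside the range of the other 33. Type VI collagen showed it as well, with Col6a2 at 100.2 CPM beside a median of 2.02 and Col6a1 at 78.2 CPM beside 1.81.

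Other listed genes were at their usual level in the same library. The 6 genes of collagen maturation lay inside the range of the other libraries, with Pcolce, which speeds the cutting of procollagen ends, at 380 CPM (others 302 to 610), Serpinh1 at 112 CPM (77.3 to 170, median 121) and P4ha1 at 103 CPM (87.4 to 182, median 123). Mmp2, a gelatinase, was at 46.0 CPM, as in the median of the others, and Lamb1 at 200 CPM (180 to 310, median 250.0). Sparc was 276 CPM, above the 58.4 to 214 CPM of the others but less than 1.5 times their median of 187. In all, 12 genes were within 1.5 times the median either way and 8 were under it. In this library 10 of 11 collagen chains were above all other libraries, Col5a1 being the exception at 36.3 CPM (others 8.36 to 41.6), and 0 of 6 maturation genes were.

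Beside this, the summed meningeal markers (13 of 16 measured) were at 14251 CPM in replicate 24 and 1116 to 2933 CPM in the other 33, with Foxc1 at 60.2 CPM (others up to 13.6), Aldh1a2, the retinoic acid synthesising enzyme of meninges, at 196 CPM (others up to 51.4) and Ptgds, prostaglandin D synthase, at 12090 CPM (others up to 2556). Ptgds was close to the sum in size, and both were lowest in replicate 8 and second highest in replicate 28. The sum and Ptgds are thus not read as separate measures. General fibroblast markers (5 summed from a list of 11) were at 334 CPM in replicate 24, with the others at 156 to 277 CPM and a median of 240. Mural markers were at 1026 CPM (others 68.5 to 267), endothelial markers at 686 CPM (others 211 to 454) and astrocyte markers at 1222 CPM (others 199 to 913). Microglial markers were also above all others, at 351 CPM (others 91.8 to 202). The epithelial markers, at 154691 CPM, were near the low end of the 153012 to 271129 CPM of the others, whose median was 198368 CPM. Ttr, at 102233 CPM, was just below the 102650 to 235998 CPM of the others. The part of all these cells in the matrix level was not tested. The hippocampal library with the same number in the labels, replicate 28, had 4.76 CPM of Col1a2, 2.27 CPM of Slc6a13 and 37.8 CPM of Fn1. It was not high for these genes, and its Slc6a13 was the lowest of the 38 hippocampal libraries.

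**Figure D3:**
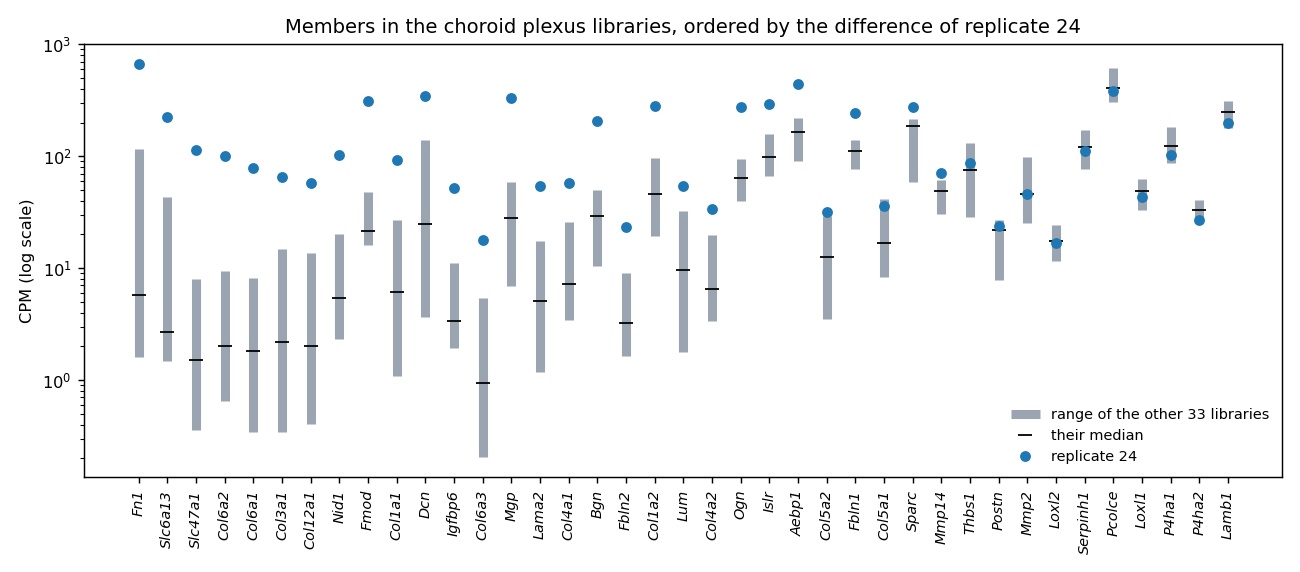
CPM on a log axis of the 39 genes in choroid plexus, ordered by how far replicate 24 (blue point) lies from the others, whose range is a grey bar and whose median is a black line (n = 33). At the left Fn1, Slc6a13 and Slc47a1 lie far above the bar, and at the right the maturation genes, such as Serpinh1, Pcolce and P4ha1, lie within it.

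The values of single genes are given by arm. Col1a2 in choroid plexus was lowest at 24.7, 48.0 in the median and highest at 96.0 CPM in Sham, 19.2, 53.4 and 283 CPM in YS, and 20.6, 45.5 and 96.0 CPM in YDS. Sparc was at 71.8, 191 and 201 CPM in Sham, 62.5, 189 and 276 CPM in YS, and 58.4, 183 and 198 CPM in YDS. P4ha1 was at 90.3, 123 and 146 CPM in Sham, 87.4, 115 and 159 CPM in YS, and 91.6, 125 and 182 CPM in YDS. For these genes the medians of the arms lay close together beside the spread within an arm. Other genes had a higher median in YS, within overlapping ranges. Fn1 had medians of 4.01, 8.95 and 4.83 CPM in Sham, YS and YDS, Slc47a1 of 0.963, 2.04 and 1.36 CPM, and Col6a2, named after its values were seen, of 1.24, 2.72 and 1.70 CPM. The meningeal marker Foxc1 had medians of 1.62, 3.90 and 2.05 CPM in the same order, and its part was not tested.

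A clearer separation ran with the library numbers in the labels, which fall into a lower range (C401 to C419 in choroid plexus, H401 to H419 in hippocampus) and a higher range (C421 to C440 and H421 to H440). The labels do not say what the numbers mark, and the split was noticed after the values were seen and is given without a test. Sparc was lowest at 58.4, 94.1 in the median and highest at 197 CPM in the 14 choroid plexus libraries of the lower range and at 137, 194 and 276 CPM in the 20 of the higher range. Pcolce ran the other way, at 359, 557 and 610 CPM in the lower numbers and 302, 375 and 456 CPM in the higher. Ttr shifted too, from 119152, 199469 and 235998 CPM to 102233, 123783 and 137424 CPM, and as Ttr takes up so much of a library, the CPM of other genes depends on it. The ranges overlapped in each of these genes. Across choroid plexus they did not overlap in 18 genes (0.132% of all genes).

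Across the 34 choroid plexus libraries Col1a2 was lower where Ttr was higher. On the log2 scale Pearson's r was -0.80 (permutation p = 1e-05, the smallest that 100000 permutations can give, adjusted p = 2.25e-05 over 9 relations) and Spearman's rho was -0.87 (permutation p = 1e-05, adjusted p = 4.5e-05). It was -0.78 without the 2 libraries farthest in Ttr, -0.83 within the lower numbers (n = 14), -0.58 within the higher numbers (n = 20), and -0.88, -0.80 and -0.82 within Sham, YS and YDS. Since both genes are shares of the same library total, r was computed again with TMM factors and was -0.78.

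Col1a2 also went with genes of vessels and meninges, but not in every subset. With Pecam1, an endothelial gene, r was 0.77 (permutation p = 2e-05, adjusted p = 3.6e-05, rho = 0.61 with permutation p = 0.00017), with Pdgfrb, a receptor of mural cells and fibroblasts, 0.77 (permutation p = 1e-05, adjusted p = 2.25e-05, rho = 0.62 with permutation p = 0.00011), and with Slc6a13 0.75 (permutation p = 1e-05, adjusted p = 2.25e-05, rho = 0.39 with permutation p = 0.0212). Without the 2 farthest libraries r was 0.57, 0.53 and 0.51, and without replicate 24 it was 0.63, 0.60 and 0.59. The rho with Slc6a13 was 0.34 without replicate 24 (adjusted permutation p = 0.0561), which did not pass. By arm r was 0.51, 0.46 and 0.67 in Sham and 0.54, 0.67 and 0.40 in YDS. It was 0.93, 0.92 and 0.88 in YS, the arm of replicate 24. Within the higher numbers, which hold replicate 24, r was 0.78, 0.91 and 0.86. Without the 2 farthest libraries r was 0.41, 0.68 and 0.67 there. The rho with Pecam1 was 0.47 in the higher numbers (adjusted permutation p = 0.0577), which did not pass. Within the lower numbers the relations did not hold, with r at 0.31, 0.17 and -0.24 (adjusted permutation p = 0.516, 0.607 and 0.526). The r with Pdgfrb was 0.75 there without the 2 libraries farthest in Pdgfrb.

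**Figure D4:**
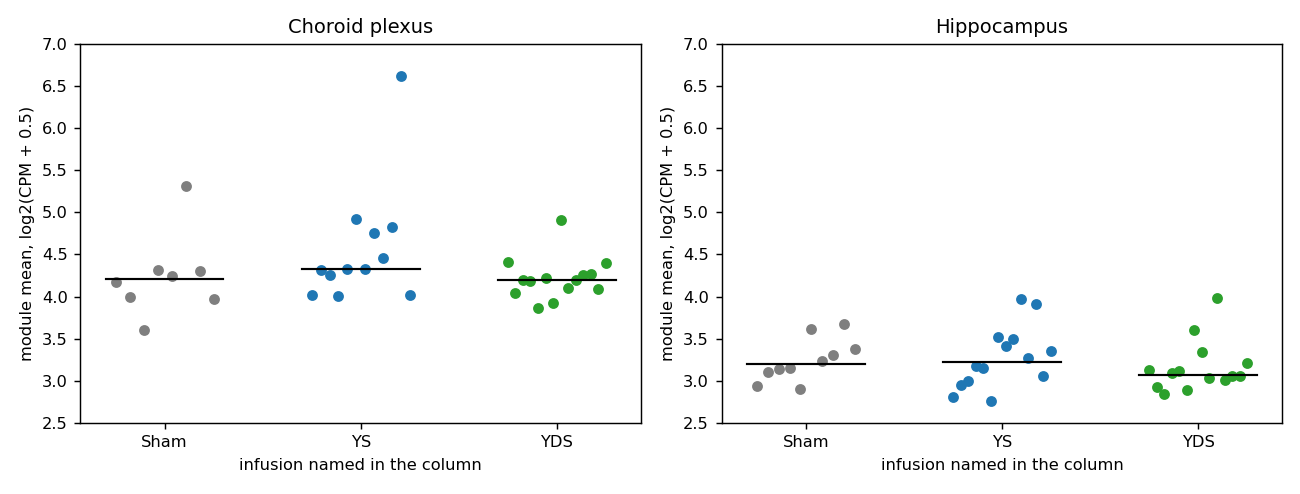
Module mean on the log2(CPM + 0.5) scale (y axis) of each infusion library, in choroid plexus at the left and hippocampus at the right, by the arm named in the column, with a bar at the median of each arm. The arms overlap in both tissues, and the choroid plexus library at 6.62 is replicate 24. The tables were made separately, so levels of the panels are side by side only.

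In hippocampus of the infused mice the module mean was lowest at 2.90, 3.19 in the median and highest at 3.68 over 10 Sham libraries, 2.75, 3.22 and 3.97 over 14 YS libraries, and 2.84, 3.07 and 3.99 over 14 YDS libraries. No pair of arms was free of overlap in any of the 38 genes, nor in any gene of the table (0% of 14440). Col1a2 was at 2.29, 7.88 and 22.1 CPM in Sham, 4.76, 8.13 and 29.0 CPM in YS, and 3.57, 5.93 and 26.7 CPM in YDS. Fn1 was at 33.0, 47.6 and 75.0 CPM in Sham, 37.8, 61.1 and 76.6 CPM in YS, and 29.6, 56.0 and 68.8 CPM in YDS. Sparc was at 142, 164 and 290 CPM in Sham, 97.3, 163 and 177 CPM in YS, and 105, 176 and 238 CPM in YDS.

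The type IV collagen chains split by library number almost without overlap. Col4a1 was lowest at 24.2, 32.0 in the median and highest at 40.8 CPM in the 18 libraries of the lower numbers, and 39.98, 49.8 and 65.2 CPM in the 20 of the higher numbers. Col4a2 was at 26.9, 34.9 and 45.1 CPM and at 38.3, 56.8 and 79.1 CPM. For Col4a1 the split was there inside each arm. It was at 27.5 to 39 against 42.4 to 65.2 CPM in Sham and 24.2 to 38.6 against 39.98 to 60.1 CPM in YS. In YDS it was at 28.1 to 40.8 against 42.0 to 62.3 CPM. Col4a2 split inside YS and YDS but overlapped in Sham, where H406 held 45.1 CPM and H436 held 38.3 CPM.

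Other matrix genes leaned the same way, and 34 of 38 had a higher median in the higher numbers, beside 52.4% of all genes, but no matrix gene was free of overlap, and 3 genes in the whole table were (0.0208%). Fn1, with medians of 55.3 and 55.4 CPM, and P4ha1, with 63.5 and 62.2 CPM, were level between the ranges. The arms as the columns name them were present in both ranges of numbers.

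**Figure D5:**
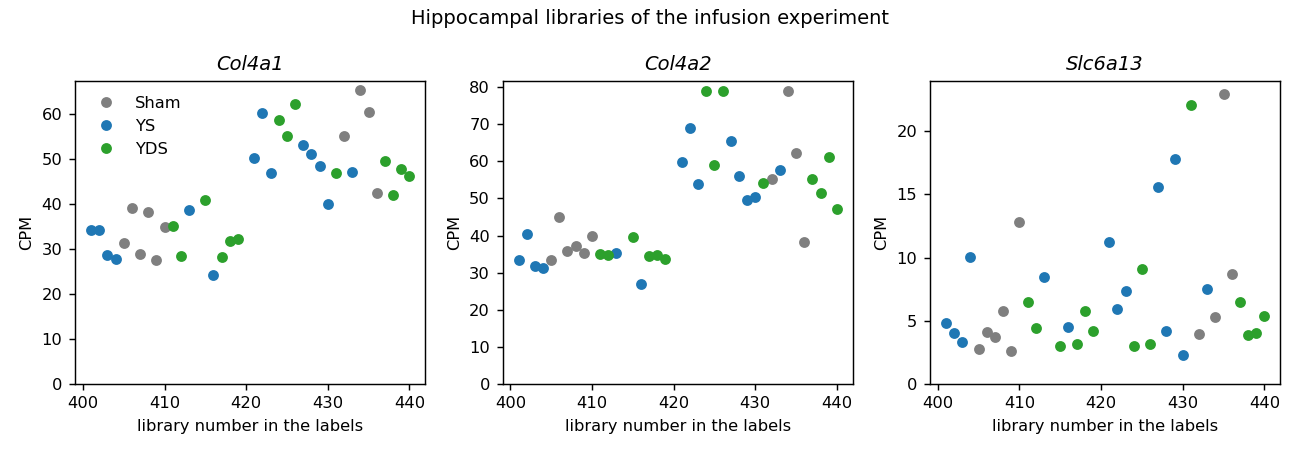
CPM (y axis, linear from 0) of Col4a1, Col4a2 and Slc6a13 in the 38 hippocampal libraries of the infusion experiment against the library number in the labels (x axis), coloured by the arm named in the column. Col4a1 lies between 24.2 and 40.8 in the lower numbers and between 39.98 and 65.2 in the higher. Slc6a13 shows a few high libraries, which reach 12.8 in the lower numbers and 22.9 in the higher.

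Slc6a13 in hippocampus was a matter of a few high libraries, from 2.27 CPM over a median of 5.03 to 22.9 CPM, and Col1a2 was high in the same ones. Their r was 0.84 over 38 libraries (permutation p = 1e-05, adjusted p = 2.25e-05) and rho 0.70 (permutation p = 1e-05, adjusted p = 4.5e-05). It was 0.79 without the 2 libraries farthest in Slc6a13, 0.87 and 0.80 within the lower and higher numbers, and 0.90, 0.91 and 0.66 within Sham, YS and YDS. Col1a2 went less with Pdgfrb (r = 0.43, permutation p = 0.00769, adjusted p = 0.0115, rho = 0.39 with permutation p = 0.0151), which was 0.26 and 0.38 within the lower and higher numbers and did not hold there (adjusted permutation p = 0.516 and 0.143).

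With Pecam1 r was 0.31 (permutation p = 0.0576, adjusted p = 0.0740, rho = 0.28 with permutation p = 0.0889), and with Ttr 0.07 (permutation p = 0.694, adjusted p = 0.694, rho = 0.14 with permutation p = 0.396). Neither passed. Col1a2 of choroid plexus and of hippocampus was compared over the 34 library numbers present in both tissues, with r = 0.15 (permutation p = 0.395, adjusted p = 0.444) and rho = 0.32 (permutation p = 0.0711, adjusted p = 0.0914). Without replicate 24 of choroid plexus r was 0.33 (permutation p = 0.0607), which did not pass. The rho was then 0.41 (permutation p = 0.0189, adjusted p = 0.02365), which did pass.

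The levels of choroid plexus and hippocampus of the infused mice were set side by side. Of 38 genes in both tables, 12 were higher in every choroid plexus library than in every hippocampal library (19.0% of all 12609 shared genes) and 0 were lower in every one (21.1%), while 26 overlapped. Non-overlap either way was not more frequent than among all genes, of which 40.1% showed it. The tables were made separately, and levels across them were not tested. Pcolce led, at 302 to 610 CPM in choroid plexus and 0.585 to 19.0 CPM in hippocampus, followed by Postn, periostin, with medians of 22.1 and 0.776 CPM, and Ogn, osteoglycin, with 64.6 and 2.28 CPM. Mmp2, Thbs1, Aebp1, Serpinh1, Islr, Loxl1, Fbln1, Lamb1 and P4ha2 made up the 12.

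Other genes had the higher median in hippocampus. Col4a2 had a median of 6.55 CPM in choroid plexus and 46.2 CPM in hippocampus, Col4a1 7.61 and 41.4 CPM, and Fn1 5.77 and 55.3 CPM. Without replicate 24, the highest choroid plexus library for Col4a2, at 19.9 CPM, lay below the lowest hippocampal library, at 26.9 CPM. Col4a1 and Fn1 still overlapped without it, since choroid plexus replicate 28 held 25.6 CPM of Col4a1 and 117 CPM of Fn1, where the hippocampal libraries began at 24.2 CPM and ended at 76.6 CPM. Per kilobase of exon, Pcolce was the most abundant of the listed genes in choroid plexus by its median, at 104 CPM per kb, followed by Sparc at 49.6 and Serpinh1 at 49.5 CPM per kb. In hippocampus Sparc led with 43.3 CPM per kb, followed by P4ha1 with 15.4 and Igfbp6, a binding protein of insulin-like growth factors, with 13.3 CPM per kb, while Col1a2 was at 0.558 and Col3a1 at 0.0960 CPM per kb. Sparc was thus at a like level per length in both tissues, and its CPM ranges overlapped widely.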

How the data were processed

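RNA was measured in 17 Klotho libraries and 72 libraries of infused mice. The authors used Subread (build mm10) for alignment and featureCounts for gene counts, and deposited values as CPM of the library total without TMM factors. How low genes were filtered is not given in the sources used here. Columns with the authors' own fold changes, p-values, FDR, average log2 CPM and microglial gene marks were not used. All per-sample columns were mapped to samples by name (0 unmapped). Date-like symbols were restored (23, 19 and 21 in the Klotho, choroid plexus and hippocampus tables) and 3 repeated symbols left out of the Klotho table.

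The 4 Klotho groups were fitted together with limma 3.58.1 (trend) on log2(CPM + 0.5) in R 4.3.3, two-sided, with Benjamini-Hochberg adjustment over 14964 genes and a threshold of 0.05. Fold changes are on this scale, which understates changes of low genes. In every library 100% of values were whole reads within 0.05 reads, and edgeR 4.0.16 and DESeq2 1.42.0 were run on these reads as alternatives. Library totals are those of the recovered reads. Relations used two-sided tests with 100000 permutations. The steps were tested on simulated data. Exon lengths and positions came from GENCODE vM21 (GRCm38), and promoters from RefSeq GRCm38.p6.

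The 40 genes and all lists were chosen with earlier results of these data known. Every library is given for genes past the threshold in any Klotho comparison and for Col1a1, Col1a2, Col3a1, Col4a1, Col4a2, Dcn, Fn1, Sparc, Slc6a13 and Slc47a1 (the rule also named Timp1, for which no value was used here), and of 93 further matrix genes the 3 with the smallest p in Klko are named. Alternatives were TMM and RLE factors, pseudocounts of 0.1 and 1, a filter of 1 CPM in 4 libraries, fits of 2 groups, a trend over exon length taken out, a block for replicate numbers and leaving out each library. An edgeR fit of Klko and WT-y on the 7 libraries in which the smallest nonzero value is a single read, relations without choroid plexus replicate 24 and relations within library numbers were chosen after seeing the data.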

Additional observations from a re-analysis of the deposited data

Results flagged for a closer look

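Among the 68 groups of 4 or 5 Klotho libraries and a gene that were tested for an outlying library with Dixon's ratio at its 95% critical value, 2 had one, and chance alone gives about 1 in 20. Both were WT-o replicate 1. Slc6a13, the GABA transporter of meningeal fibroblasts, was at 32.5 CPM in this mouse and at 5.47 to 8.70 CPM in the other 3 WT-o libraries, a gap of 0.88 of the range. Nid1, nidogen, was at 11.9 CPM and at 6.09 to 6.37 CPM in the others, a gap of 0.95 of the range. Not every listed gene was among the 68 groups, and genes outside them, to which the ratio was not applied, also had a far library. Fmod was at 42.4 CPM in WT-o replicate 1 and at 8.60 to 10.8 CPM in the other WT-o libraries. Igfbp6 was at 61.4 CPM in WT-y replicate 2 and at 11.6 to 14.5 CPM in the other WT-y libraries.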

How the results depend on the processing

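For Klko against WT-y, where limma called 3 of 39 genes, 0 were called when only the 2 groups were fitted, 5 by DESeq2 on recovered reads, 0 by edgeR on 7 libraries (added after seeing the data; no gene of the table passed) and 2 to 5 with each library left out, with 5 without WT-y replicate 2. For WT-o against WT-y, DESeq2 called 1 and the fits without 1 library 0 to 2. The counts for Klhet against WT-o and for the difference of effects stayed at 0 under the alternatives run. Leaving out 1 library moved the difference of module means between -0.09 and 0.10 for Klko, -0.27 and 0.03 for Klhet, and -0.26 and 0.01 for WT-o. The 0.03 for Klhet was without WT-o replicate 1. Log2 fold changes in Klko that changed sign between such fits ranged from -0.040 to 0.62 for Col1a1, -0.034 to 0.38 for Col1a2, -0.17 to 0.35 for Col3a1 and -0.25 to 0.095 for Col4a2, and in Klhet from -0.25 to 0.056 for P4ha1. With the length trend removed Col4a2 in Klko was at 0.0016 and the difference of effects of Lama2 at 0.042. The causes were not tested.

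Same-numbered libraries did not deviate together (correlations of -0.50 to -0.09 between Klko and WT-y, -0.23 to 0.02 between Klhet and WT-o and 0.10 to 0.23 between WT-o and WT-y), so the numbers were not read as pairs. With a replicate block 4 genes were called in Klko, P4ha2 among them (adjusted p = 0.0497 by limma), and 0 in the other comparisons.

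Within the lower library numbers, chosen after seeing the data, Col1a2 had an r of 0.31 with Pecam1, 0.17 with Pdgfrb and -0.24 with Slc6a13 in choroid plexus, and of -0.49 with Ttr, -0.21 with Pecam1 and 0.26 with Pdgfrb in hippocampus. Within the higher numbers it was 0.38 with Pdgfrb in hippocampus and -0.13 between the tissues. Loxl2 was low in the Klotho libraries, at most 2.59 CPM, and its values there rest on few reads.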
